A study of Homo sapiens with 6 samples.

Results

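The NRF2 and thioredoxin redox genes are 10 genes of oxidant defence, taken as the rows of the deposited table with the gene names NFE2L2, KEAP1, NQO1, HMOX1, TXN, TXNRD1, SRXN1, PRDX1, PRDX2 and PRDX3, out of 50868 genes in all. Their RNA levels come from sequencing of CUTLL1, an established line from human T-cell acute lymphoblastic leukaemia. The shAURKB arm carried a lentiviral short hairpin RNA (shRNA) against AURKB, the kinase of the chromosomal passenger complex, and the shGFP arm carried the control shRNA, with 3 biological replicates in each. Both arms were selected with puromycin, collected at 48 h and grown in medium that held fetal bovine serum and β-mercaptoethanol, a reducing agent. The comparison asked whether the fall of some cystine and glutathione genes with shAURKB, SLC7A11 among them, extended to other targets of NRF2.

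NRF2, encoded by NFE2L2, is a transcription factor that the adaptor KEAP1 normally delivers to a cullin ubiquitin ligase for destruction. When oxidants or electrophiles modify KEAP1, NRF2 accumulates, pairs with a small MAF protein and binds antioxidant response elements beside genes for glutathione synthesis, NADPH supply, iron storage and the thioredoxin system. In that system thioredoxin reductase passes electrons from NADPH to thioredoxin, thioredoxin reduces peroxiredoxins that have destroyed a peroxide, and sulfiredoxin rescues peroxiredoxins that have been over-oxidised. Because NRF2 is regulated largely through the stability of its protein, the NFE2L2 transcript is not a measure of its activity.

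RefSeq promoter windows (GRCh38.p14, from 250 bases before to 50 after an annotated start) were found for 8 of the 10 genes, 11 windows in all. HMOX1 and PRDX1 had none. The core of the antioxidant response element was searched as TGACNNNGC on both strands and occurs in 13.3% of all 35116 windows. It was found in both windows of TXNRD1 and in the window of the downstream start of KEAP1, 3 of the 11. These stretches are shown because TXNRD1 had the largest rise among the 10 genes that passed the test and KEAP1 is the inhibitor of NRF2. Capitals mark each match, and a match read on the opposite strand appears as its reverse complement.
TXNRD1, upstream start at 104215779, chr12:104215650-104215788, plus strand: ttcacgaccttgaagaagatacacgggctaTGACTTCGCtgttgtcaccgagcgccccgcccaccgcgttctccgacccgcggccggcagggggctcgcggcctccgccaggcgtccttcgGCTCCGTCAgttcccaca
TXNRD1, downstream start at 104287032, chr12:104286900-104286968, plus strand: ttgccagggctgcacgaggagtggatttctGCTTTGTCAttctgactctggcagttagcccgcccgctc
KEAP1, downstream start at 10502771, chr19:10502764-10502855, minus strand: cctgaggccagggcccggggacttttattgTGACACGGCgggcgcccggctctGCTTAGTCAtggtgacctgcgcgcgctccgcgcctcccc
The E-box CACGTG, a motif of basic helix-loop-helix factors, occurs in 7.26% of all windows and was found in that of PRDX3, the gene with the smallest adjusted p of the 10.
PRDX3, start at 119178812, chr10:119178934-119178999, minus strand: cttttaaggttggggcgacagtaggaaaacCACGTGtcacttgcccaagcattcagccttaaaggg
The AP-1 motif TGANTCA (7.71% of all windows) and the ATF4-CEBP composite TGATGNAA (3.62%) were in none of the 11 windows. The GC box GGGCGG, in 45.0% of all windows, was in 10 of the 11, covering 7 genes (SRXN1 had no match). A match is a run of letters and not evidence of binding, and the absence of one applies to these windows only.

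Library totals ran from 10446722 to 11641019 counts with shAURKB and from 10154187 to 11922979 counts with shGFP. AURKB had 39.8, 43.9 and 36.0 CPM (counts scaled to library size by the TMM method) with shAURKB, against 100, 97.0 and 107 CPM with shGFP, so the control level was halved or more in every knockdown library (39.3% of control, log2 fold change -1.35 ± 0.08 (SE), edgeR adjusted p = 2.54e-04). T-cell leukaemia markers had a summed level of 3902 to 4059 CPM with shAURKB and 3481 to 3644 CPM with shGFP over 12 genes. PTCRA had only 22 reads in all, with 0 in shGFP replicate 3. NOTCH3 went against the sum, at 10.9, 8.42 and 8.43 CPM with shAURKB and 52.6, 48.7 and 50.8 CPM with shGFP. One library stood apart: shGFP replicate 1 held 185 reads of the collagen gene COL1A2, against at most 3 in any other, and its summed levels were 49.9 CPM over 9 fibroblast markers and 9.50 CPM over 8 epithelial markers. In the other libraries those sums were 23.7 to 26.5 CPM (shAURKB) and 26.3 to 27.3 CPM (shGFP) for fibroblast markers, and 0.574 to 1.29 CPM (shAURKB) and 0.591 to 1.43 CPM (shGFP) for epithelial markers. Results that rest on that library are given with and without it below.

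Of the 10 genes, 6 rose with shAURKB (KEAP1, TXN, TXNRD1, SRXN1, PRDX2 and PRDX3) and 0 fell, where a rise or fall is an adjusted p below 0.05 in edgeR's quasi-likelihood test over 14818 genes. NFE2L2, NQO1 and PRDX1 did not pass the test, and HMOX1 had too few reads to be tested. Over all tested genes, 12.5% rose and 10.9% fell, so 53.4% of the calls were rises. With upper-quartile in place of TMM scaling 38.8% of the calls were rises, and 5 of the 10 genes rose. The rises were modest, between 1.19-fold for TXN and 1.45-fold for TXNRD1. The median log2 fold change of the 9 tested genes was 0.29, beside -0.00 for all tested genes. All but NQO1 of the 9 averaged at least 10 CPM, a level at which 17.9% of genes rose and the median log2 fold change was 0.04. In 7 of the 9, the 6 genes that rose and PRDX1, all 3 shAURKB libraries lay above all 3 shGFP libraries, as they did in 21.7% of tested genes. RNA came from whole cultures, so a change in the share of cells that express a gene and a change in its RNA per cell cannot be told apart.

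**Figure D1:**
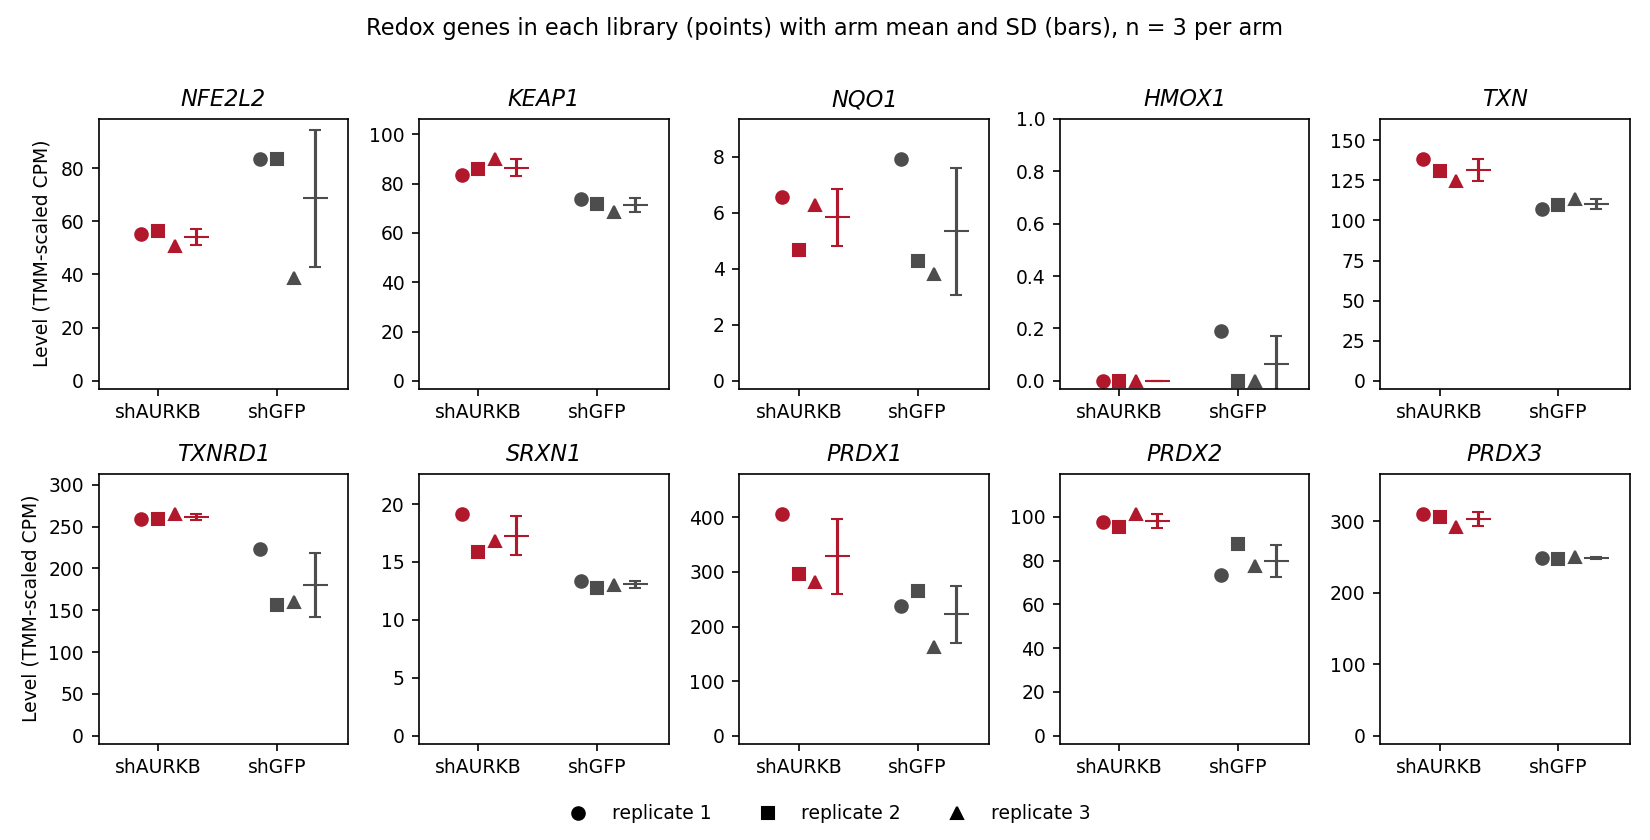
Level of each of the 10 genes in TMM-scaled CPM, with 1 point per library (the shape gives the replicate) and the mean and SD of each arm (n = 3) as bars. TXN, TXNRD1, SRXN1, KEAP1 and the peroxiredoxins have all shAURKB points above all shGFP points, whereas the arms overlap for NFE2L2 and NQO1, each with 1 shGFP library far from the other shGFP libraries, and HMOX1 is at 0 in every library but shGFP replicate 1.

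**Figure D2:**
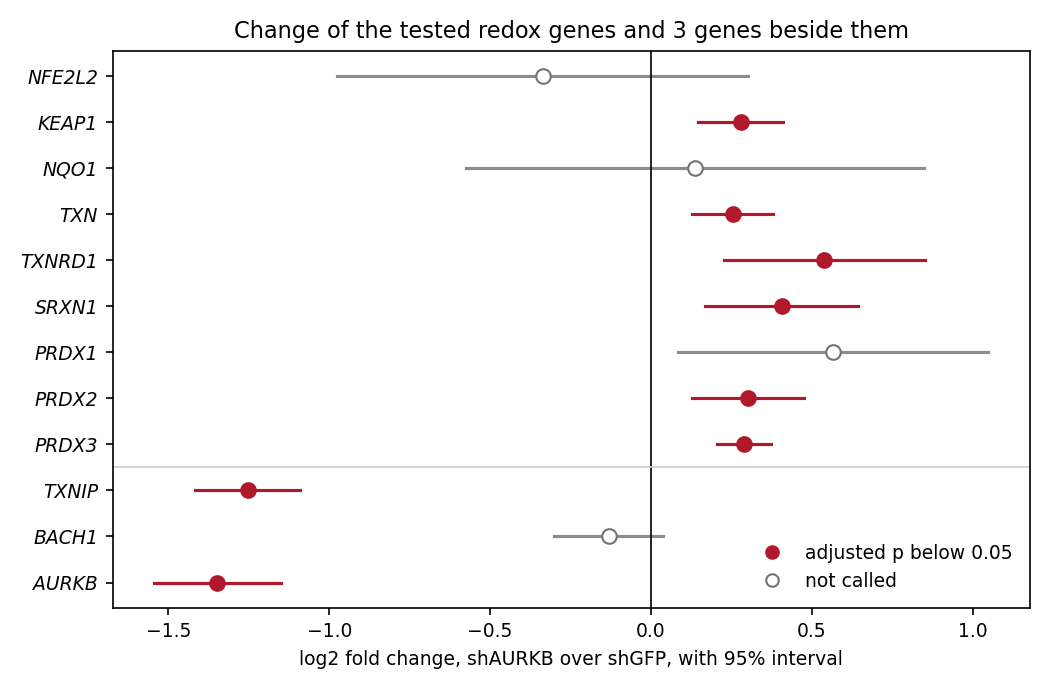
Log2 fold change of shAURKB over shGFP with its 95% interval for the 9 tested genes and, under the line, TXNIP, BACH1 and AURKB. Filled points passed an adjusted p of 0.05. The called redox genes lie between 0.25 and 0.54, NFE2L2 has the only negative estimate of the 9, and TXNIP at -1.25 is near AURKB at -1.35.

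Among the regulators, KEAP1 (ENSG00000079999, chr19:10486120-10503741, minus strand) had 83.6, 85.8 and 90.1 CPM with shAURKB, against 73.8, 71.8 and 68.4 CPM with shGFP. The arms did not overlap. It rose 1.21-fold (log2 fold change 0.28 ± 0.06, edgeR adjusted p = 0.0135). The rise passed the test with any 1 library left out, at adjusted p = 0.0283 to 0.0452 in edgeR, and was lost in 2 other alternatives (0.0101 to 0.0512 over all alternatives).

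NFE2L2 (ENSG00000116044, chr2:177227595-177392697, minus strand), the gene of NRF2 itself, had 55.3, 56.5 and 50.8 CPM with shAURKB, against 83.5, 83.5 and 38.8 CPM with shGFP. The shAURKB libraries were close together, and they lay below shGFP replicates 1 and 2 but above shGFP replicate 3. The log2 fold change was -0.34 ± 0.27, with a 95% interval of -0.98 to 0.30 (edgeR adjusted p = 0.413). Without shGFP replicate 3 it was -0.62 and passed the test as lower (edgeR adjusted p = 5.09e-03, against 5.09e-03 to 0.735 over all alternatives), so that 1 control library decides the call. In that library NFE2L2 stood at 0.465 of the mean of the other shGFP replicates, a deviation that 66 of the 9891 genes of at least 10 CPM (0.667%) equalled or passed. The gene and library were picked for this after their values were seen, so the share is a description and not a test. Per length, in the authors' FPKM, the ratio of NFE2L2 to KEAP1 was 0.470, 0.468 and 0.401 with shAURKB, against 0.805, 0.826 and 0.404 with shGFP. The ratio in shGFP replicate 3 therefore fell within the range of the shAURKB libraries.

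Other regulators of NRF2 were tested at 20 genes, of which 4 rose and 0 fell, with a median log2 fold change of 0.07. Over all tested genes 12.5% rose (17.9% of those of at least 10 CPM) and 10.9% fell. PGAM5, a mitochondrial phosphatase that binds KEAP1, averaged 141 ± 4.81 CPM with shAURKB and 91.3 ± 3.81 CPM with shGFP (SD, n = 3 each) and rose, with a log2 fold change of 0.63 ± 0.05 (edgeR adjusted p = 6.04e-04). CUL3, the cullin of the ligase that KEAP1 serves, averaged 103 ± 5.30 CPM with shAURKB and 82.3 ± 3.87 CPM with shGFP, a log2 fold change of 0.32 ± 0.06 (edgeR adjusted p = 0.0110, against 2.79e-03 to 0.0627 over all alternatives, of which unfiltered log2(FPKM + 1) lost the call). RBX1, the RING subunit of that ligase, did not pass the test at 68.8 ± 3.54 CPM with shAURKB and 66.7 ± 2.16 CPM with shGFP. BTRC, the adaptor of a second ligase for NRF2, rose by 0.38 ± 0.09 (edgeR adjusted p = 0.0256), but the call was lost without shAURKB replicate 1 or 3 or without shGFP replicate 1 or 3 (adjusted p = 0.0594 to 0.0731, against 0.0221 to 0.137 over all alternatives). DPP3, which competes with NRF2 for KEAP1, was just inside the threshold at 0.26 ± 0.08 (edgeR adjusted p = 0.0493) and its call was lost without any 1 library other than shAURKB replicate 2 (adjusted p = 0.0589 to 0.130, against 0.0341 to 0.192 over all alternatives). BACH1, the repressor that competes with NRF2 for its sites, averaged 39.7 ± 0.890 CPM with shAURKB and 43.5 ± 3.19 CPM with shGFP and did not pass the test (log2 fold change -0.13 ± 0.07, edgeR adjusted p = 0.232).

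The classical NRF2 targets NQO1 and HMOX1 gave little to compare. NQO1 (ENSG00000181019, chr16:69706996-69726951, minus strand), a quinone reductase whose transcript is a standard readout of NRF2, had 75, 48 and 66 reads with shAURKB, against 84, 44 and 46 reads with shGFP, or 6.57, 4.68 and 6.26 CPM against 7.93, 4.27 and 3.80 CPM. The arms overlapped through shGFP replicate 1, which held the highest level of all. Its log2 fold change was 0.14 ± 0.30, and the 95% interval of -0.58 to 0.85 spans changes of either sign (edgeR adjusted p = 0.781). In shGFP replicate 1, the library with collagen and keratin reads, NQO1 was at 1.96 times the mean of the other shGFP libraries. Without that library the log2 fold change was 0.54, and without shGFP replicate 3 it was -0.061, neither passing the test (edgeR adjusted p = 0.135 and 0.913, against 0.135 to 0.992 over all alternatives). HMOX1 (ENSG00000100292, chr22:35380361-35394214, plus strand), the haem oxygenase, had 0 reads in all 3 shAURKB libraries and in shGFP replicates 2 and 3, and 2 reads in shGFP replicate 1. A count of 0 allows a level of up to 0.248 to 0.293 CPM by counting error alone, so no difference was detectable at this depth.

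In the thioredoxin system, TXN (ENSG00000136810, chr9:110243811-110256640, minus strand), cytosolic thioredoxin, had 138, 131 and 125 CPM with shAURKB, against 107, 110 and 113 CPM with shGFP. It rose 1.19-fold without overlap of the arms (log2 fold change 0.25 ± 0.05, edgeR adjusted p = 0.0164). The call was lost without shGFP replicate 1 (edgeR adjusted p = 0.0556, against 0.0114 to 0.0623 over all alternatives). TXNRD1 (ENSG00000198431, chr12:104215779-104350305, plus strand), the cytosolic reductase that carries the element cores printed above, had 260, 259 and 266 CPM with shAURKB, against 224, 157 and 160 CPM with shGFP. The shAURKB libraries agreed closely and shGFP replicate 1 lay between them and its own arm. TXNRD1 rose 1.45-fold (log2 fold change 0.54 ± 0.13, edgeR adjusted p = 0.0277). Without shGFP replicate 1 the log2 fold change was 0.73 (edgeR adjusted p = 1.20e-03), and without any other 1 library the call was lost (adjusted p = 0.0672 to 0.0781, against 9.21e-04 to 0.101 over all alternatives). The part of the collagen and keratin reads of that library in the TXNRD1 and NQO1 levels was not tested. A same-strand pseudogene inside TXNRD1, RPL18AP3, held more reads than TXNRD1 in every library, and how shared reads were assigned is not given.

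TXNIP, which binds reduced thioredoxin and inhibits it, had 50.2, 53.8 and 58.7 CPM with shAURKB, against 130, 133 and 124 CPM with shGFP. It fell, with a log2 fold change of -1.25 ± 0.07 (edgeR adjusted p = 1.84e-04), and the arms were far apart. With TXN higher and TXNIP lower, the within-library ratio of TXNIP to TXN in FPKM was 0.0991, 0.112 and 0.129 with shAURKB, against 0.332, 0.332 and 0.300 with shGFP. The ratio of TXNRD1 to TXN was 0.151, 0.159 and 0.172 with shAURKB, against 0.168, 0.115 and 0.113 with shGFP, so its arms overlapped through shGFP replicate 1. The mitochondrial counterparts did not pass the test: TXN2 averaged 65.0 ± 5.03 CPM with shAURKB and 64.3 ± 3.15 CPM with shGFP, and TXNRD2 averaged 14.5 ± 1.51 CPM with shAURKB and 14.4 ± 0.0945 CPM with shGFP.

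SRXN1 (ENSG00000271303, chr20:646615-653370, minus strand), sulfiredoxin, had 19.2, 15.9 and 16.8 CPM with shAURKB, against 13.4, 12.7 and 13.1 CPM with shGFP. It rose 1.32-fold without overlap of the arms (log2 fold change 0.41 ± 0.10, edgeR adjusted p = 0.0283). The call held without shAURKB replicate 2 and was lost without any other 1 library (edgeR adjusted p = 0.0624 to 0.0805, against 0.0282 to 0.0805 over all alternatives). Its substrates, the peroxiredoxins, were among the more abundant of the 10 genes.

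PRDX3 (ENSG00000165672, chr10:119167703-119178833, minus strand), the mitochondrial peroxiredoxin, had 311, 305 and 292 CPM with shAURKB, against 248, 247 and 250 CPM with shGFP. It had the tightest controls of the 10 genes relative to its level and rose 1.22-fold (log2 fold change 0.29 ± 0.04, edgeR adjusted p = 2.43e-03). The rise passed the test in every alternative, with adjusted p up to 0.0178. PRDX2 (ENSG00000167815, chr19:12796820-12801859, minus strand), a cytosolic peroxiredoxin, had 97.8, 95.3 and 101 CPM with shAURKB, against 73.6, 87.7 and 77.8 CPM with shGFP. It rose 1.23-fold (log2 fold change 0.30 ± 0.07, edgeR adjusted p = 0.0269). The arms did not overlap, but the call was lost without any 1 library other than shGFP replicate 2 (edgeR adjusted p = 0.0562 to 0.0797, against 0.0139 to 0.0929 over all alternatives).

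PRDX1 (ENSG00000117450, chr1:45511036-45523047, minus strand), the main cytosolic peroxiredoxin and an NRF2 target, had 407, 296 and 282 CPM with shAURKB, against 237, 266 and 163 CPM with shGFP. The arms did not overlap, yet the libraries of each arm spread widely. Its log2 fold change of 0.57 ± 0.20 was the largest estimate of the 10 genes, with a 95% interval of 0.08 to 1.05, and it missed the threshold (edgeR adjusted p = 0.0887, unadjusted p = 0.0274). No comparison with 1 library left out called it (edgeR adjusted p = 0.0750 to 0.221), whereas DESeq2 did (adjusted p = 0.0150, against 0.0150 to 0.258 over all alternatives). In shAURKB replicate 1 it stood at 1.41 times the other shAURKB libraries, and in shGFP replicate 3 at 0.649 of the other shGFP libraries. The opposite-strand gene MMACHC overlaps its last 2347 bases, and with the strand setting of the counts not given, reads of the overlap cannot be told apart.

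**Figure D3:**
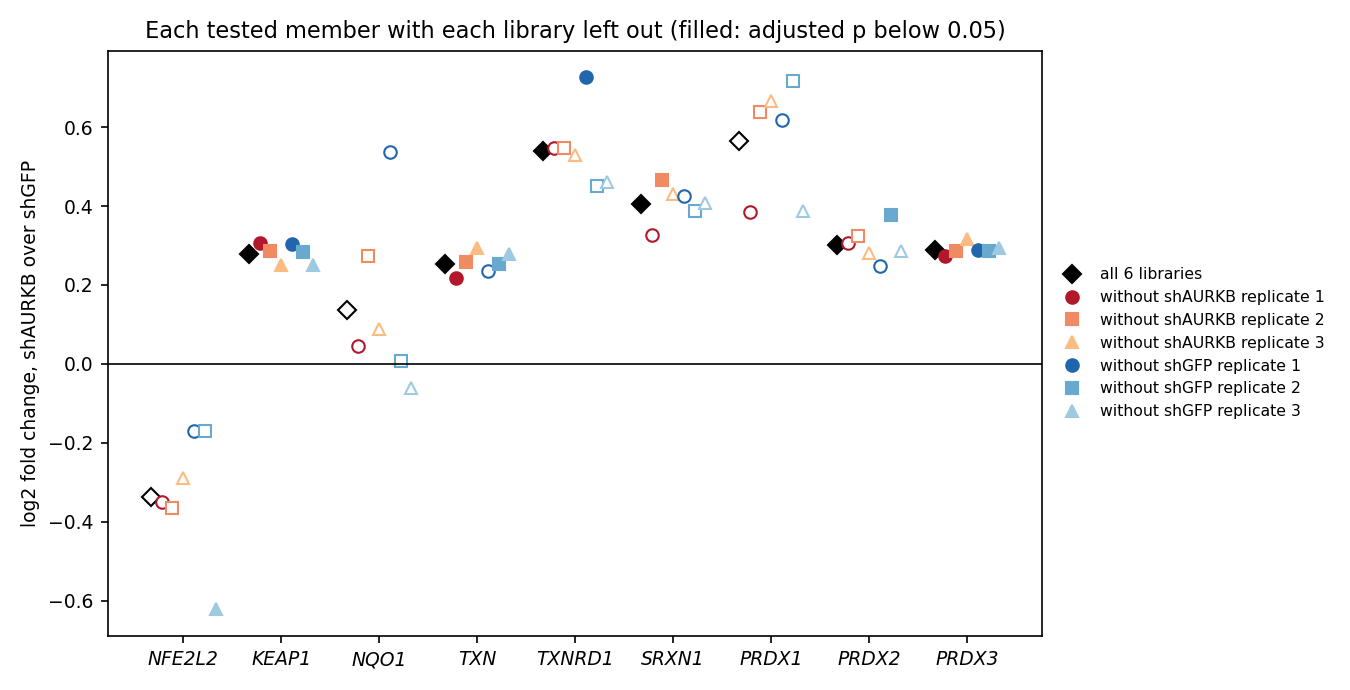
Log2 fold change of each tested gene with all 6 libraries and with each library left out; filled points have an adjusted p below 0.05. KEAP1 and PRDX3 are filled throughout, TXN lacks only the point without shGFP replicate 1, and NFE2L2 is filled only without shGFP replicate 3, at -0.62.

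Compared per length in FPKM, PRDX1 was the highest of the 10 genes, at 114 ± 23.9 with shAURKB and 80.1 ± 19.1 with shGFP, and TXN, at 88.0 ± 4.78 with shAURKB and 76.4 ± 2.06 with shGFP, came next. All PRDX1 libraries lay above all TXN libraries with shAURKB, whereas with shGFP the spread of PRDX1 covered TXN. PRDX3 followed at 68.7 FPKM with shAURKB and 58.3 FPKM with shGFP, then PRDX2 at 24.1 FPKM with shAURKB and 20.3 FPKM with shGFP. TXNRD1 came next at 14.1 FPKM with shAURKB and 10.1 FPKM with shGFP, and KEAP1, at 10.0 FPKM with shAURKB and 8.58 FPKM with shGFP, was close to it in the control arm. SRXN1 at 6.28 FPKM lay above NFE2L2 at 4.47 FPKM with shAURKB, whereas with shGFP SRXN1 at 4.91 FPKM and NFE2L2 at 5.87 FPKM did not differ beyond the spread of NFE2L2. NQO1, at 1.00 FPKM with shAURKB and 0.949 FPKM with shGFP, and HMOX1 were the lowest. This order depends on the length that the FPKM assign to each gene. TXNRD1 averaged 261 CPM with shAURKB and 180 CPM with shGFP, above TXN at 131 and 110 CPM, yet lay below TXN in FPKM.

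Over the 6 human peroxiredoxins, the summed FPKM was 343 ± 26.5 with shAURKB and 292 ± 21.1 with shGFP (SD, n = 3 each), with no overlap between the arms. PRDX1 made up 33.0 ± 4.24% of that sum with shAURKB and 27.2 ± 4.73% with shGFP, and PRDX3 made up 20.1 ± 1.03% with shAURKB and 20.1 ± 1.62% with shGFP. PRDX5, found in mitochondria and peroxisomes, made up 23.2 ± 1.19% with shAURKB and 26.9 ± 1.67% with shGFP, the arms not overlapping. Of the peroxiredoxins outside the 10 genes none passed the test: the log2 fold changes were 0.31 ± 0.15 for PRDX4, 0.08 ± 0.06 for PRDX5 and 0.05 ± 0.05 for PRDX6 (edgeR adjusted p = 0.195, 0.366 and 0.576).

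Other genes of the thioredoxin system and its substrates were tested at 27, of which 5 rose and 3 fell, with a median log2 fold change of 0.06. The shares over all tested genes were 12.5% rising (17.9% of those of at least 10 CPM) and 10.9% falling. GLRX3, an iron-sulfur glutaredoxin, averaged 105 ± 3.71 CPM with shAURKB and 79.2 ± 0.465 CPM with shGFP and rose, with a log2 fold change of 0.40 ± 0.05 (edgeR adjusted p = 2.16e-03). Beside TXNIP, the falls were those of MSRB2, a mitochondrial methionine sulfoxide reductase, by 0.49 ± 0.11, and of TXNDC16 by 0.46 ± 0.12 (edgeR adjusted p = 0.0226 and 0.0354). The MSRB2 call was lost without any 1 library other than shAURKB replicate 1 (adjusted p = 0.0557 to 0.0716, against 6.98e-03 to 0.0958 over all alternatives). The TXNDC16 call was lost without shAURKB replicate 2 or 3 or without shGFP replicate 2 or 3 (adjusted p = 0.0875 to 0.105, against 0.0256 to 0.105 over all alternatives). With 1 library left out in turn, 3 of the 8 calls held throughout, those of TXNIP, GLRX3 and TXNDC12.

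Among NRF2 targets beyond the 10 genes and the glutathione pathway, 23 were tested, of which 7 rose and 1 fell, with a median log2 fold change of 0.12. Beside this, 12.5% of all tested genes rose (17.9% of those of at least 10 CPM) and 10.9% fell. The largest rise was that of FTL, the ferritin light chain, with 838, 884 and 787 CPM with shAURKB, against 422, 392 and 397 CPM with shGFP. FTL approximately doubled (log2 fold change 1.05 ± 0.05, edgeR adjusted p = 1.36e-04). FTH1, the ferritin heavy chain, averaged 531 ± 7.49 CPM with shAURKB and 387 ± 22.7 CPM with shGFP, a log2 fold change of 0.46 ± 0.05 (edgeR adjusted p = 1.25e-03). Both iron-storage chains rose, by unequal amounts: the FPKM ratio of FTL to FTH1 was 6.97 ± 0.435 with shAURKB and 4.63 ± 0.336 with shGFP. Processed copies carry near-identical sequence, and 25 such copies of FTH1 together held 37.9% as many counts as the gene itself, against 1.37% for 16 copies of FTL, so FTH1 is the less certain of the pair.

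In the pentose phosphate pathway, a source of the NADPH that thioredoxin reductase and glutathione reductase consume, TKT and PGD rose, with log2 fold changes of 0.22 ± 0.04 and 0.12 ± 0.03 (edgeR adjusted p = 0.0149 and 0.0289), while TALDO1 did not pass the test at 0.12 ± 0.05 (edgeR adjusted p = 0.139). The small PGD difference lost its call whichever library was left out (adjusted p = 0.0539 to 0.0778, against 0.0284 to 0.158 over all alternatives). The gene that fell was ABCC2, a conjugate exporter, at 3.49 ± 0.548 CPM with shAURKB and 5.22 ± 0.313 CPM with shGFP (edgeR adjusted p = 0.0434). The ABCC2 call was lost without any 1 library other than shAURKB replicate 2 (adjusted p = 0.0860 to 0.119, against 0.0336 to 0.155 over all alternatives). Of the 8 calls, 4 held with any 1 library left out, those of FTL, FTH1 and TKT among them, although TKT reached an adjusted p of 0.104 over all alternatives. A further 14 listed targets beside HMOX1 were too low to test. Among them, PTGR1 had 15 reads and ME1 had 7 in shGFP replicate 1, the library with collagen and keratin reads. In every other library PTGR1 had 0 reads and ME1 at most 1. AKR1B10 and ALDH3A1 had reads in shAURKB libraries only, at most 2 in any. The source of these reads was not tested.

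The NRF2 targets of the glutathione pathway moved in both directions. Of 5 genes, 3 rose: GSR, glutathione reductase, by 0.49 ± 0.05, GCLC, the catalytic subunit of glutamate-cysteine ligase, by 0.42 ± 0.11, and GCLM, its modifier subunit, by 0.24 ± 0.06 as log2 fold change (edgeR adjusted p = 9.26e-04, 0.0355 and 0.0320). SLC7A11, the cystine importer, fell by 2.66 ± 0.11 to 13.0 ± 1.88 CPM with shAURKB, against 82.4 ± 2.59 CPM with shGFP (edgeR adjusted p = 8.42e-05). GSS, glutathione synthetase, did not pass the test at 116 ± 3.60 CPM with shAURKB and 115 ± 2.29 CPM with shGFP. The GCLC call was lost without shAURKB replicate 2 or 3 or without shGFP replicate 1 or 3 (adjusted p = 0.0955 to 0.105, against 0.0102 to 0.152 over all alternatives), and the GCLM call without any 1 library other than shGFP replicate 3 (adjusted p = 0.0647 to 0.0927, against 0.0308 to 0.116 over all alternatives).

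**Figure D4:**
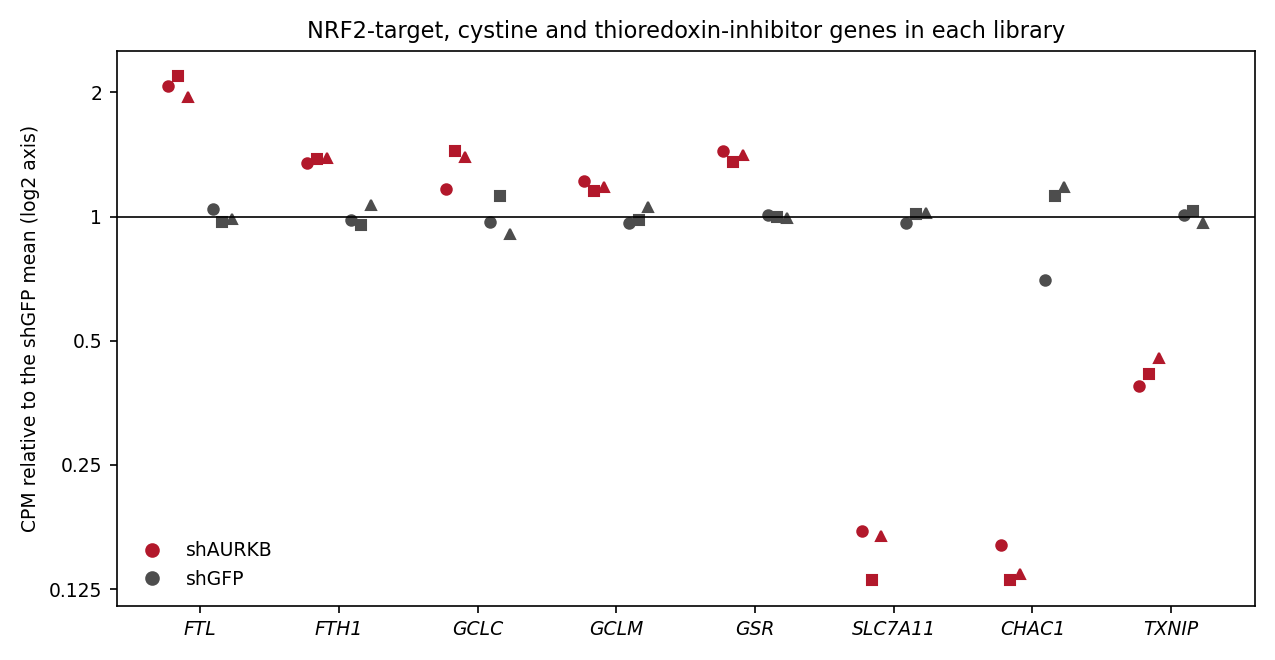
CPM of 8 genes in each library, divided by the shGFP mean of the gene, on a log2 axis; each point is 1 library. FTL, FTH1 and GSR lie above 1 in all 3 shAURKB libraries, and SLC7A11, CHAC1 and TXNIP lie far below 1 in all 3, with fitted log2 fold changes of -2.66, -2.81 and -1.25.

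The wider list of cystine and glutathione genes was tested at 21, of which 5 rose and 5 fell, with a median log2 fold change of 0.01 (-0.04 with upper-quartile scaling). Rises made up 12.5% and falls 10.9% of all tested genes, and rises 17.9% of those of at least 10 CPM. The falls were those of CHAC1, which degrades glutathione, SLC7A11 and its partner SLC3A2, and CTH and CBS of the transsulfuration route to cysteine. CHAC1 had a log2 fold change of -2.81 ± 0.23 and SLC3A2 of -0.38 ± 0.04 (edgeR adjusted p = 6.04e-04 and 1.44e-03), and CTH fell by 1.34 ± 0.37 near the limit of detection, at 0.553 ± 0.253 CPM with shAURKB and 1.43 ± 0.313 CPM with shGFP (edgeR adjusted p = 0.0408). The CTH call was lost without any 1 library other than shAURKB replicate 1 (adjusted p = 0.0772 to 0.117, against 0.0370 to 0.117 over the alternatives that gave it an adjusted p; DESeq2 and the filtered FPKM did not). The CBS call (log2 fold change -1.01 ± 0.23, edgeR adjusted p = 0.0220) was lost without shAURKB replicate 1, shGFP replicate 1 or shGFP replicate 2 (adjusted p = 0.0608 to 0.0649, against 9.80e-03 to 0.0649 over all alternatives). The rises were GSTP1, a glutathione transferase, by 0.45 ± 0.04 (edgeR adjusted p = 6.69e-04), and GPX4, GSR, GCLC and GCLM. Set beside this, the 10 NRF2 and thioredoxin genes had no fall among the 9 tested with all 6 libraries, so the decrease of cystine import and transsulfuration genes was not seen in them. Of the 10, only NQO1, HMOX1, SRXN1, TXN, TXNRD1 and PRDX1 were listed as NRF2 targets. The called ones, TXN, TXNRD1 and SRXN1, each lost the call with some library left out. KEAP1 and PRDX3, whose calls held, were not listed as targets. Whether the 10 genes differ from the cystine and glutathione list was not tested.

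Of 12 superoxide and peroxide enzymes tested, 2 rose and 0 fell, with a median log2 fold change of 0.07. For this list and those below, the shares over all tested genes were 12.5% rising (17.9% of those of at least 10 CPM) and 10.9% falling. SELENOW, a small selenoprotein, averaged 67.5 ± 2.48 CPM with shAURKB and 37.4 ± 4.69 CPM with shGFP and rose by 0.85 ± 0.09 (edgeR adjusted p = 1.64e-03). GPX4, the selenoenzyme that reduces lipid peroxides, rose by 0.28 ± 0.06 (edgeR adjusted p = 0.0165), a call lost without shAURKB replicate 2, shGFP replicate 1 or shGFP replicate 2 (adjusted p = 0.0533 to 0.0565, against 0.0146 to 0.0576 over all alternatives). CAT, SOD1 and SOD2 did not pass the test, with log2 fold changes of 0.04 ± 0.05, 0.07 ± 0.10 and 0.06 ± 0.06. TXNRD1, GPX4 and SELENOW are selenoproteins that rose, whereas TXNRD2 and GPX1, also selenoproteins, did not pass the test. Selenoproteins were not compared as a class. Of 8 tested genes for selenoprotein synthesis, 0 rose and 1 fell. That gene was SEPSECS, which completes selenocysteine on its transfer RNA, at 22.7 ± 2.20 CPM with shAURKB and 36.6 ± 1.33 CPM with shGFP, a fall by 0.69 ± 0.09 as log2 fold change (edgeR adjusted p = 2.66e-03). In haem and iron handling 19 genes were tested, of which 3 rose and 1 fell, with a median log2 fold change of 0.04 (-0.01 with upper-quartile scaling). Beside both ferritin chains, TFRC, the transferrin receptor, rose by 0.42 ± 0.03, to 832 ± 17.3 CPM with shAURKB, against 620 ± 14.2 CPM with shGFP (edgeR adjusted p = 4.61e-04). ALAD, an enzyme of haem synthesis, fell by 0.26 ± 0.06 (edgeR adjusted p = 0.0282), a call lost without any 1 library other than shGFP replicate 1 (adjusted p = 0.0642 to 0.0801, against 0.0154 to 0.0907 over all alternatives).

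**Figure D5:**
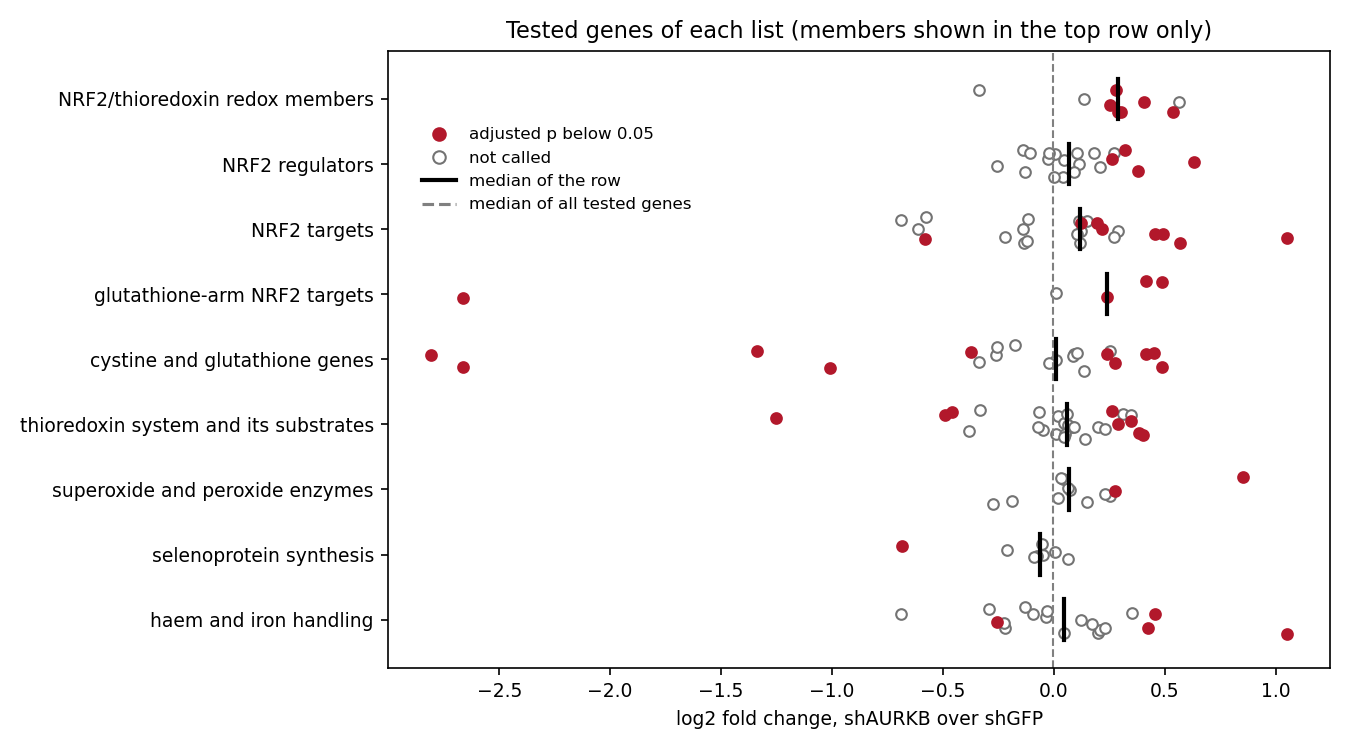
Log2 fold change of every tested gene in each list; filled points have an adjusted p below 0.05, the short line is the median of the list and the dashed line the median of all tested genes. The 9 tested of the 10 genes are drawn in the top row only, with a median of 0.29, and the medians of the other lists lie between -0.06 and 0.24.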

How the data were processed

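RNA of 6 CUTLL1 cultures was analysed, grouped by the sample titles. The authors deposited whole-number counts per gene and, for the same genes, FPKM (counts per length and depth). Levels, shares and ratios in FPKM between genes depend on the length assigned to each gene. The submitters' processing notes name HISAT2 2.0.4, StringTie 1.3.0, edgeR and the build GRCh38 (hg38). What each tool did, whether strand was used and how reads with several positions were treated is not given in the sources used here. Gene positions are those of the deposited table.

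Genes were kept with filterByExpr at a minimum count of 10 and a minimum total of 15. The 14818 kept genes held 99.6% to 99.8% of the counts of a library. TMM factors lay between 0.979 and 1.02. A model with the arm as its only term was fitted to all kept genes with edgeR 4.0.16 (R 4.3.3), and the quasi-likelihood test was two-sided. P-values were adjusted by the method of Benjamini and Hochberg over these genes, and an adjusted p below 0.05 was called. The code was tested on simulated data. The biological coefficient of variation was 0.127. Replicates of an arm differed by a chi-square per degree of freedom of 6.73 to 7.61, more than sampling noise gives. CPM are TMM-scaled except in marker sums. The floor for a count of 0 was 3 counts and covers counting error only.

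The 10 genes and the gene lists around them were chosen with earlier results of these data known, so their counts and medians are descriptions. The lists share some genes. Named genes are the 10, AURKB, TXNIP, BACH1 and, per list, up to 3 called genes with the largest rise and up to 3 with the largest fall; any others were chosen after their values were seen. One gene named by this rule is left out of the text. SELENOW stands in the table under an older symbol. The alternatives were 2 other scalings (RLE, upper-quartile), 2 other tests (DESeq2 1.42.0 and the limma-voom method of limma 3.58.1), 2 other filters (none, or at least 1 CPM in 3 libraries), the fit with a replicate block, the fits without each library in turn, and limma-trend on deposited FPKM. The FPKM were used as log2(FPKM + 1) or log2(FPKM + 0.1) with a minimum of 0.5 in 3 libraries, or as log2(FPKM + 1) without one. Ranges over all alternatives cover these.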

Additional observations from a re-analysis of the deposited data

How the results depend on the processing

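Of the 10 genes, 6 passed as higher with all libraries. The count was 6 under RLE scaling, DESeq2 (which gained PRDX1 and lost SRXN1), limma-voom, no filter on counts and at least 1 CPM, 5 under upper-quartile scaling, 4 on log2(FPKM + 1) and log2(FPKM + 0.1), and 1 on unfiltered log2(FPKM + 1). With a single library left out it was 3 to 4, and KEAP1 and PRDX3, neither of them listed as an NRF2 target, held in each of these. The count of lower genes was 0 in each of these settings except without shGFP replicate 3, where it was 1 (NFE2L2). The estimate of NQO1 ran from -0.061 (without shGFP replicate 3) to 0.54 (without shGFP replicate 1). Of all tested genes, 1847 rose and 1609 fell, so 53.4% of calls were rises; with upper-quartile scaling 1325 rose and 2087 fell (38.8% rises), with log2(FPKM + 1) 1264 rose and 1686 fell (42.8% rises), and unfiltered log2(FPKM + 1) gave 914 rises. With a library left out 998 to 1056 genes fell. Among all listed genes, 29 rose and 11 fell, against 22 and 16 with upper-quartile scaling. The rises were 17 on log2(FPKM + 1) and log2(FPKM + 0.1), 11 on unfiltered log2(FPKM + 1) and 16 to 19 with a library left out. The falls were 7 under DESeq2, 6 without a count filter, 7 on unfiltered log2(FPKM + 1) and 5 to 9 with a library left out. Upper-quartile scaling moved the median of all genes to -0.06 and that of the 9 tested among the 10 genes from 0.29 to 0.23. It turned the medians of the cystine and glutathione list to -0.04 and of the haem and iron list to -0.01. On log2(FPKM + 1) the haem and iron median was also -0.01. Apart from what the smaller number of libraries or the wider set of tested genes brings, the cause of these changes was not tested.

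The replicate numbers are shared by both arms, but same-numbered libraries did not deviate together (correlations -0.0887, -0.0313 and -0.0365), and no library correlated best with its own number. With the number as a replicate block, 2 of the 10 genes passed as higher, PRDX3 and TXNRD1 (adjusted p = 0.0178 and 0.0388), KEAP1 was lost (adjusted p = 0.0512, and 0.0508 on unfiltered log2(FPKM + 1)), 1027 genes of the whole table fell, and 17 of the listed genes rose and 7 fell. Depth limits the results on HMOX1, with 2 reads in all, and on NQO1, with 44 to 84 reads a library.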

Other observations

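Genes beside or across the 10 genes were looked at after the values were seen, and with no strand setting given, reads of genes on opposite strands cannot be told apart where they overlap. CTD-2033A16.3, annotated as antisense, starts 62 bases beyond the start of NQO1 on the opposite strand (chr16:69727013-69742563) and had 288, 252 and 205 reads with shAURKB, against 123, 128 and 144 reads with shGFP. It rose, with a log2 fold change of 0.95 ± 0.12 (edgeR adjusted p = 2.54e-03), while NQO1 itself, with fewer reads in every library, did not pass the test. AC079305.10 lies within NFE2L2 on the opposite strand (chr2:177264359-177265515) and had 26, 20 and 15 reads with shAURKB, against 24, 24 and 53 reads with shGFP. Its highest count was in shGFP replicate 3, the library in which NFE2L2 was lowest, and its difference between the arms did not pass the test (log2 fold change -0.67 ± 0.33, edgeR adjusted p = 0.188).

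MMACHC, which overlaps the end of PRDX1, had 563, 168 and 451 reads with shAURKB, against 376, 140 and 390 reads with shGFP. Both arms had their lowest MMACHC count in replicate 2. PRDX1 had 407, 296 and 282 CPM with shAURKB, against 237, 266 and 163 CPM with shGFP. Reads of the overlap were not counted apart, so their part in the PRDX1 level was not tested. The MMACHC difference did not pass the test (log2 fold change 0.42 ± 0.47, edgeR adjusted p = 0.562). RPL18AP3, a ribosomal protein pseudogene inside TXNRD1 on the same strand, had 4786, 4634 and 4338 reads with shAURKB, against 4148, 3889 and 4602 reads with shGFP. These are more than TXNRD1 had in every library, and the part of such reads in the TXNRD1 counts was not tested. RPL18AP3 rose, with a log2 fold change of 0.16 (edgeR adjusted p = 0.0389, against 0.0355 to 0.314 over the alternatives, so that the call is lost in some). Processed copies of TXN, PRDX1, PRDX2 and PRDX3 together held 0.330%, 0.0112%, 0.0691% and 0.156% as many counts as the gene itself.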
